A study of Mus musculus with 20 samples.

Results

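Triacylglycerol, the fat that adipocytes store, is built by a short series of enzymes, and 10 genes of that series were followed here in mouse epididymal fat. The genes were Gpam, Gpat3, Agpat2, Lpin1, Dgat1, Dgat2, Mogat1, Mogat2, Gpd1 and Pck1. They were chosen by symbol, and all 10 were found among the 55401 genes of the deposited table, each under a single gene identifier. PolyA RNA had been sequenced from 20 libraries labelled eWAT, the white fat pad that lies along the epididymis. Of these, 10 came from mice under random food restriction, in which intermittent fasting was combined with a calorie cut of 5%, and 10 came from mice on a control diet. The labels give no strain, age, sex or duration of the regime, and no genetic change in either group. A further label marks libraries for contamination with spermatocytes, germ cells in meiosis. It reads Yes for 3 restricted and 7 control libraries, and No for 7 restricted and 3 control libraries. Whether each library is a separate animal is not in the labels. The p-values below therefore describe sample-to-sample spread, part of which may be technical.

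Most triacylglycerol is made by adding fatty acyl chains to glycerol 3-phosphate. A glycerol 3-phosphate acyltransferase adds the first chain, an acylglycerol phosphate acyltransferase the next, a lipin removes the phosphate, and a diacylglycerol acyltransferase attaches the last chain. A second route, best known from the small intestine, starts from monoacylglycerol and uses a monoacylglycerol acyltransferase instead. White adipocytes have little glycerol kinase activity, so they make the glycerol 3-phosphate from glucose, or from pyruvate in the fasting state. The route from pyruvate, called glyceroneogenesis, runs through Pck1, and both routes end with Gpd1.

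Libraries held 18291602 to 44061508 counts in the restricted group and 14306528 to 38789768 in the control group. The RNA integrity number was 6.5 to 7.9 in 8 restricted libraries and 7.1 to 7.9 in 9 control libraries. Adipocyte markers were high in each library, with a sum over 8 genes of 33400 to 46300 CPM (counts scaled to library size) in restricted and 37000 to 46900 CPM in control libraries. Transcripts of skeletal muscle stood apart in 6 libraries, Restricted 1 and Control 1 to 5, where 10 muscle markers summed to 970 to 3370 CPM, against 17.4 to 105 CPM in the other 14. Restricted 1 had the highest muscle sum, 3370 CPM, the lowest adipocyte sum, 33400 CPM, and the lowest macrophage sum, 812 CPM over 8 markers. Macrophage markers summed to 812 to 1450 CPM in restricted and 1320 to 1870 CPM in control libraries. Sums of 10 germ cell markers overlapped between libraries marked Yes (2.40 to 107 CPM) and those marked No (2.73 to 37.9 CPM). Fold changes of the 10 genes are given with and without Restricted 1 and the 6 libraries with muscle transcripts. In tissue samples like these, fewer cells of a type and less RNA per cell cannot be told apart.

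The 10 genes covered a wide range of levels. Per kilobase of listed transcript length, the order of the means over all 20 libraries ran from Pck1 (994 ± 232 CPM per kb, SD, n = 20) through Dgat2 (990 ± 195), Gpd1 (383 ± 140), Agpat2 (373 ± 138), Dgat1 (109 ± 17.5), Gpam (92.9 ± 21.2), Lpin1 (64.3 ± 12.0), Gpat3 (39.5 ± 5.79) and Mogat1 (26.9 ± 3.899) down to Mogat2 (4.20 ± 3.18 CPM per kb). Mean levels of Pck1 and Mogat2 differed 237-fold. Neighbours in that order were not always apart: Pck1 exceeded Dgat2 in 12 of 20 libraries, Gpd1 exceeded Agpat2 in 10 of 20, and Dgat1 exceeded Gpam in 17 of 20. Each other neighbouring pair kept its order in 20 of 20 libraries. Pck1, Dgat2, Gpd1 and Agpat2 were thus the most abundant transcripts, and those of the monoacylglycerol route the scarcest.

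**Figure D1:**
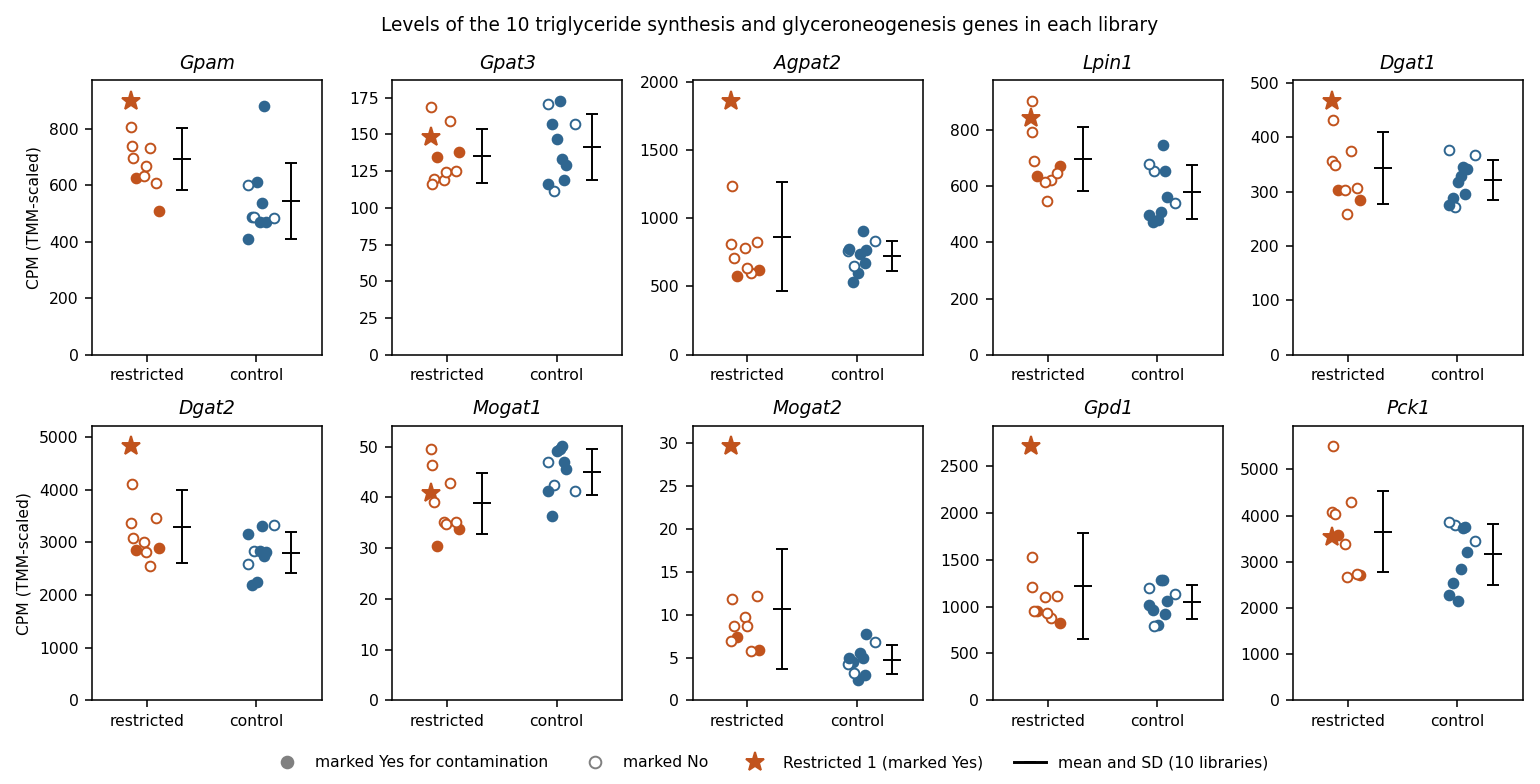
Level of each of the 10 genes in each library, in CPM scaled with TMM factors, with restricted libraries on the left and control libraries on the right of each panel, filled points for libraries marked Yes, open points for those marked No, and a star for Restricted 1. Bars give the mean and SD of 10 libraries, and the star is the highest of all 20 points for Gpam, Agpat2, Dgat1, Dgat2, Mogat2 and Gpd1.

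With the contamination label in the model, 1 of the 10 genes was called by diet at an adjusted p of 0.05. That gene was Mogat2, which was higher under restriction. The background was 12.5% of the 17105 genes tested, 6.22% higher and 6.33% lower (1064 and 1082 genes), so a single call among 10 genes is close to the share found over all genes. With plain library totals in place of scaling factors the calls over all genes split into 398 higher and 1913 lower. Of the 10 genes, 5 had an unadjusted p under 0.05, which 27.3% of all genes had. Fitted log2 fold changes of restricted over control were positive for 8 and negative for 2, with a median of 0.25 beside 0.02 over all genes. Without Restricted 1 no member was called, 5 values were positive and 5 negative, and the median was 0.01. Then 2 members had an unadjusted p under 0.05, as did 4412 of the 17105 genes. By adjusted p 10.4% of all genes were called, 4.37% higher and 6.05% lower. Without the 6 libraries with muscle transcripts no member was called either and the median was −0.04. Here 2 members had an unadjusted p under 0.05, as did 3612 of the 17105 genes. By adjusted p 5.24% of all genes were called, 2.23% higher and 3.01% lower. The diet ranges of all 10 genes overlapped; 0.877% of all genes had ranges that did not.

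**Figure D2:**
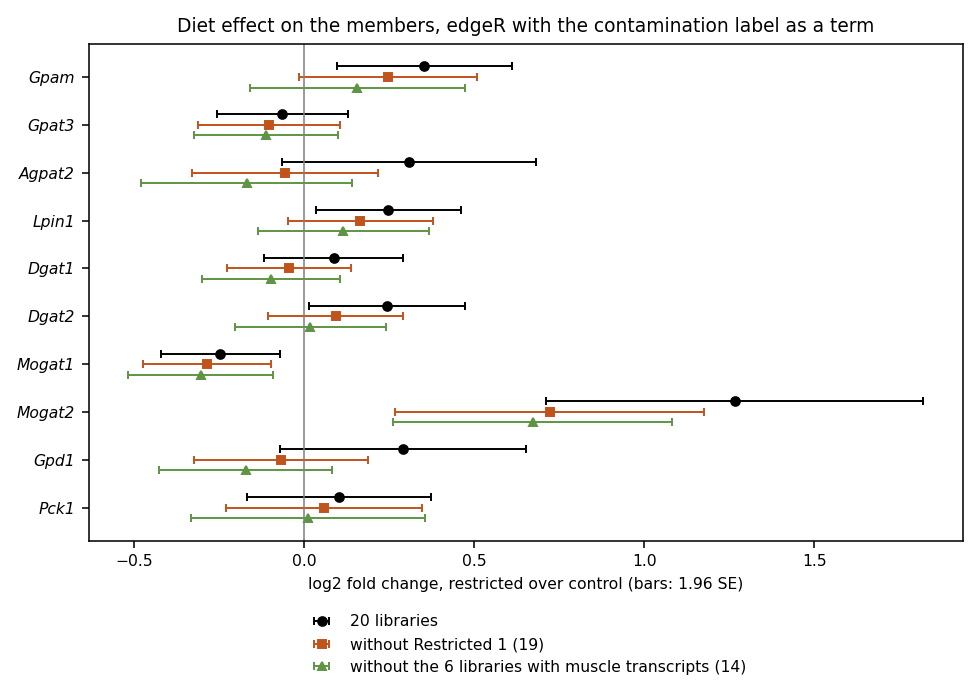
Fitted log2 fold change of restricted over control for each gene (points) with bars of 1.96 standard errors, in all 20 libraries, in 19 without Restricted 1 and in 14 without the libraries with muscle transcripts. Mogat2 lies highest in each of the 3 fits (1.27, 0.72 and 0.67), and Agpat2, Dgat1 and Gpd1 lie below 0 in the fits that leave out Restricted 1.

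Among the 10 genes, the first acylation step is served by Gpam, the mitochondrial glycerol 3-phosphate acyltransferase, and Gpat3, an enzyme of the endoplasmic reticulum. Gpat4, a further gene of this step outside the 10, averaged 301 ± 28.6 CPM over all 20 libraries, against 138 ± 20.3 CPM for Gpat3 (SD). Gpam (ENSMUSG00000024978.11, GRCm38 chr19:55067268-55127216, minus strand) had 510 CPM at the lowest, 682 at the median and 901 at the highest in restricted libraries, against 409, 489 and 883 CPM in control libraries. All 10 restricted libraries lay above the control median, but the ranges overlapped, since Control 9 reached 883 CPM while the other 9 control libraries ended at 612 CPM. The means were 693 ± 110 CPM under restriction and 545 ± 134 CPM on the control diet (SD, n = 10 each). The log2 fold change was 0.35 ± 0.131 (SE) and missed the threshold (edgeR adjusted p = 0.0790). It passed without Control 9 (0.42, edgeR adjusted p = 0.00836) and without Restricted 3 (0.43, edgeR adjusted p = 0.0372), and in DESeq2 (0.36, adjusted p = 0.0363). Without Restricted 1 it was 0.25 (edgeR adjusted p = 0.254), and without the 6 libraries with muscle transcripts 0.16 (edgeR adjusted p = 0.634).

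Gpat3 (ENSMUSG00000029314.14, chr5:100845713-100899099, plus strand) ran from 116 through a median of 130 to 169 CPM in restricted libraries, and from 111 through 140 to 173 CPM in control libraries. The ranges lay almost on each other. The log2 fold change was −0.06 ± 0.0982 (SE, edgeR adjusted p = 0.722), with an interval of 1.96 SE from −0.26 to 0.13. It was −0.10 without Restricted 1 (edgeR adjusted p = 0.597) and −0.11 without the libraries with muscle transcripts (edgeR adjusted p = 0.617). The log2 ratio of Gpat3 over Gpam within a library, which needs no scaling factor, averaged −2.35 ± 0.230 in restricted and −1.93 ± 0.400 in control libraries (SD, n = 10 each). Restricted minus control, averaged over the 2 label classes, was −0.41 (two-sided exact permutation test within the label, 14400 arrangements, p = 0.0217, adjusted over 3 ratios 0.0326). As a share of the pair per kilobase, with Gpat4 not counted, Gpat3 made up 27.3% ± 3.21 in restricted and 33.6% ± 5.74 in control libraries. The call was lost when any of 7 libraries was left out: Restricted 1 (−0.32, exact permutation test, adjusted p = 0.167), Restricted 2 (−0.41, 0.0625), Control 1 (−0.38, 0.0579), Control 4 (−0.37, 0.0536), Control 5 (−0.40, 0.0512), Control 6 (−0.35, 0.0694) and Control 10 (−0.40, 0.0533).

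The second acylation and the removal of phosphate were covered by Agpat2 and Lpin1. Agpat2 (ENSMUSG00000026922.13, chr2:26593057-26604211, minus strand) makes phosphatidic acid, and its loss causes lipodystrophy in people and mice. It had 579, 743 and 1862 CPM (lowest, median and highest) in restricted libraries, against 531, 750 and 909 CPM in control libraries. The medians were nearly the same, and the high end of the restricted group was Restricted 1 at 1862 CPM and Restricted 10 at 1235 CPM. The fold change was 0.31 ± 0.191 (SE, log2, edgeR adjusted p = 0.310) and turned to −0.06 without Restricted 1 (edgeR adjusted p = 0.847) and to −0.17 without the libraries with muscle transcripts (edgeR adjusted p = 0.602).

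Lpin1 encodes a phosphatidic acid phosphatase that also acts with transcription factors in the nucleus. The gene (ENSMUSG00000020593.16, chr12:16535669-16646966, minus strand) had 546, 660 and 906 CPM in restricted libraries, against 471, 551 and 747 CPM in control libraries. In 9 of 10 restricted libraries it lay above the control median, and 3 exceeded each control library. The fold change of 0.25 ± 0.108 (SE, log2) missed the threshold (edgeR adjusted p = 0.140) and was 0.17 without Restricted 1 (edgeR adjusted p = 0.358) and 0.12 without the libraries with muscle transcripts (edgeR adjusted p = 0.662).

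The last step is carried out by Dgat1 and Dgat2, unrelated enzymes that both join an acyl chain to diacylglycerol. Dgat2 (ENSMUSG00000030747.5, chr7:99153658-99182719, minus strand) had 2553, 3044 and 4823 CPM in restricted libraries, against 2194, 2823 and 3334 CPM in control libraries. In 9 of 10 restricted libraries it was above the control median, and 4 lay above the control range. The fold change was 0.24 ± 0.117 (SE, log2, edgeR adjusted p = 0.181), 0.09 without Restricted 1 (edgeR adjusted p = 0.611) and 0.02 without the libraries with muscle transcripts (edgeR adjusted p = 0.949). Dgat1 (ENSMUSG00000022555.12, chr15:76502015-76511951, minus strand) had 260, 329 and 468 CPM in restricted and 273, 324 and 376 CPM in control libraries, 5 restricted libraries on each side of the control median. Its fold change was 0.09 ± 0.104 (SE, log2, edgeR adjusted p = 0.629), −0.04 without Restricted 1 (edgeR adjusted p = 0.821) and −0.10 without the libraries with muscle transcripts (edgeR adjusted p = 0.652). Dgat2 was the main transcript of the pair in both diets, at 90.4% ± 1.31 of their sum per kilobase in restricted and 89.5% ± 1.52 in control libraries. The log2 ratio of Dgat2 over Dgat1 averaged 3.26 ± 0.202 in restricted and 3.12 ± 0.235 in control libraries (SD, n = 10 each) and did not pass the test (difference 0.15, exact permutation p = 0.178, adjusted over 3 ratios 0.178).

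The monoacylglycerol acyltransferases Mogat1 and Mogat2 make diacylglycerol without glycerol 3-phosphate. Both were scarce, and their ratio differed with diet. Mogat2 (ENSMUSG00000052396.7, chr7:99219084-99238619, minus strand), the enzyme that resynthesizes dietary fat in the gut, lies 36364 bases from Dgat2 on the same strand. It had 5.73 CPM at the lowest, 8.72 at the median and 29.7 at the highest in restricted libraries, against 2.39, 4.71 and 7.71 CPM in control libraries. All 10 restricted libraries were above the control median and 6 were above the highest control library, with Restricted 1 far above the rest. The means were 10.7 ± 7.04 CPM under restriction and 4.73 ± 1.68 CPM on the control diet (SD, n = 10 each), behind which stood 47 to 527 counts per library. Mogat2 rose by a log2 fold change of 1.27 ± 0.283 (SE, edgeR adjusted p = 0.00572). Without Restricted 1 the mean of the restricted group was 8.56 ± 2.38 CPM (SD, n = 9) and the fold change 0.72 ± 0.232, just short of a call (edgeR adjusted p = 0.0508). Without the 6 libraries with muscle transcripts it was 0.67 ± 0.209 (edgeR adjusted p = 0.0749), in libraries marked No it was 0.91 (edgeR adjusted p = 0.0846), and in those marked Yes 1.598 (0.0931). In the 17 libraries with an RNA integrity number it was 1.27 (edgeR adjusted p = 0.0245), and there with that number as a term 1.39 (0.0525). Restricted 1 is among the 3 restricted libraries marked Yes. With the skeletal muscle level as a term in all 20 libraries, Restricted 1 among them, the fold change was 1.26 (edgeR adjusted p = 0.00424). With limma-voom and a quality weight for each library it was 0.77 (adjusted p = 0.0439). Of 5 small intestine markers, Fabp2 had no count in any library, and their sum was 6.26 to 21.8 CPM in restricted and 4.69 to 15.3 CPM in control libraries. The sum of 4 liver markers was 29.9 to 43.0 CPM in restricted and 15.2 to 31.2 CPM in control libraries. Most of it was Alb (albumin), at 27.3 ± 3.27 CPM in restricted and 16.7 ± 4.99 CPM in control libraries (SD, n = 10 each). The mean log2 CPM of the same 4 markers overlapped, from 0.11 to 1.4 in restricted and from −0.0315 to 1.29 in control libraries. The part of these markers in the Mogat2 result was not tested.

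Mogat1 (ENSMUSG00000012187.13, chr1:78510991-78538171, plus strand) had 30.5, 37.2 and 49.5 CPM in restricted libraries, against 36.4, 46.3 and 50.0 CPM in control libraries. In 8 of 10 restricted libraries it was below the control median and in 5 below the lowest control library. The fold change of −0.25 ± 0.0896 (SE, log2) missed the threshold (edgeR adjusted p = 0.0752) and passed in several other fits: without Control 1 (−0.27, edgeR adjusted p = 0.0456), without Restricted 5 (−0.28, 0.0364), with limma-voom (−0.28, adjusted p = 0.0281) and with plain library totals (−0.35, edgeR adjusted p = 0.00352). It was −0.29 without Restricted 1 (edgeR adjusted p = 0.0617) and −0.30 without the libraries with muscle transcripts (edgeR adjusted p = 0.118). In libraries marked No it was −0.12 (edgeR adjusted p = 0.625) and in those marked Yes −0.38 (0.122). In the 17 libraries with an RNA integrity number it was −0.25 (edgeR adjusted p = 0.124), and there with that number as a term −0.26 (0.259). With the replicate number as a block it was −0.27 (0.106). The plain-total setting was added after the data were seen, and in it the median log2 fold change over all genes was −0.08. A second gene lies across the start of Mogat1. BC035947 (ENSMUSG00000090486.2, chr1:78497026-78512158, minus strand) shares 200 exon bases with it, 12.8% of the 1558 exon bases of Mogat1. Scaled to plain totals, BC035947 averaged 12.3 ± 2.02 CPM in restricted and 19.6 ± 2.80 CPM in control libraries (SD, n = 10 each), and it fell by 0.56 on the log2 scale in the fit (edgeR adjusted p = 0.00284). Because the strand setting of the counting is not given, reads of the shared bases cannot be assigned to either gene, and the part of BC035947 in the Mogat1 values was not tested. Other genes also overlap the spans of Gpam, Gpat3, Agpat2, Mogat2 and Gpd1, the most counted being 4930458D05Rik, opposite Gpat3, with at most 435 counts in a library, against 1623 or more for Gpat3.

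The ratio within each library brings both enzymes together. The log2 ratio of Mogat2 over Mogat1 ran from −2.90 through a median of −2.02 to −0.46 in restricted libraries, and from −4.35 through −3.25 to −2.57 in control libraries. In 8 of 10 restricted libraries it was above the highest control library. Restricted minus control was 1.37 on the log2 scale (two-sided exact permutation test within the label, p = 0.000347, adjusted over 3 ratios 0.00104; the smallest p it can give is 6.94e-05). The difference was 1.07 within libraries marked No and 1.68 within those marked Yes. The libraries marked Yes hold 3 restricted libraries, among them Restricted 1, which had the highest ratio, −0.46. The difference over both classes stayed between 1.07 and 1.58, past the threshold each time, when any 1 library was left out. As a share of both transcripts per kilobase, Mogat2 made up 18.2% ± 8.001 in restricted and 8.22% ± 2.85 in control libraries. Macrophage marker sums and the level of BC035947 also differed between the diets, as given above, and their part in the ratio was not tested.

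**Figure D3:**
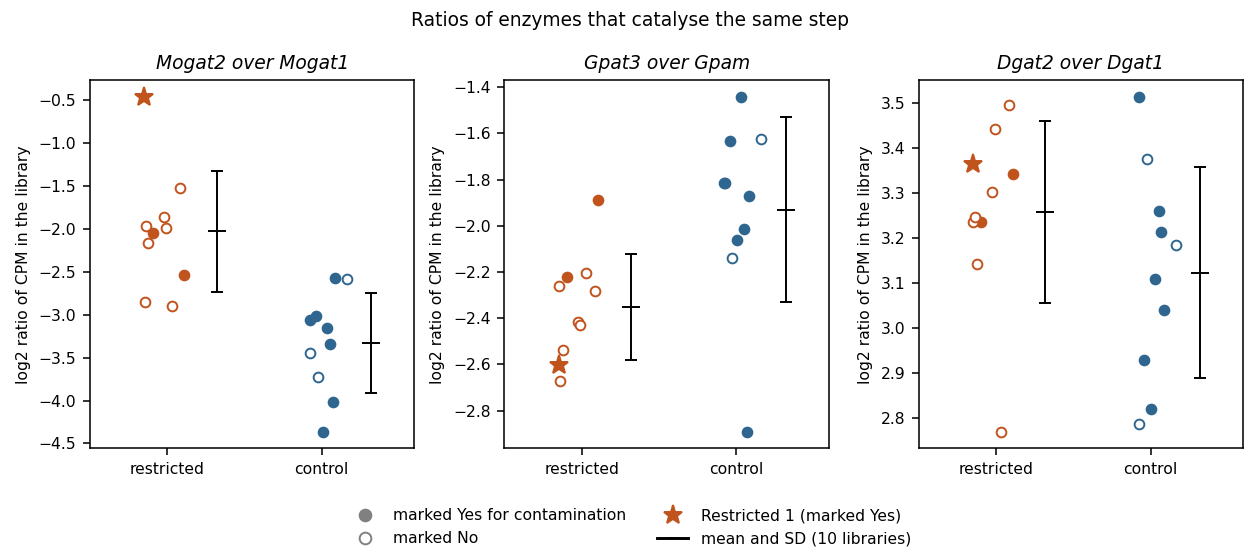
Log2 ratio of CPM within each library for 3 pairs of enzymes that catalyse the same step, with restricted libraries left and control libraries right, filled points for libraries marked Yes, open points for No, a star for Restricted 1, and bars for the mean and SD of 10 libraries. In the Mogat2 over Mogat1 panel 8 of 10 restricted points lie above the highest control point, while the points of the Dgat2 over Dgat1 panel overlap.

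Gpd1 and Pck1 supply the glycerol 3-phosphate. Gpd1 (ENSMUSG00000023019.12, chr15:99717515-99725005, plus strand), the cytosolic dehydrogenase that makes it from a glycolytic intermediate, had 825, 1029 and 2708 CPM in restricted libraries, against 798, 1039 and 1288 CPM in control libraries. The medians were close, 5 restricted libraries lay on each side of the control median, and the highest value was again that of Restricted 1. The fold change was 0.29 ± 0.185 (SE, log2, edgeR adjusted p = 0.323), −0.07 without Restricted 1 (edgeR adjusted p = 0.795) and −0.17 without the libraries with muscle transcripts (edgeR adjusted p = 0.496). Pck1 (ENSMUSG00000027513.11, chr2:173153048-173159273, plus strand), the cytosolic phosphoenolpyruvate carboxykinase and main control point of glyceroneogenesis, had 2679, 3560 and 5500 CPM in restricted libraries, against 2150, 3323 and 3863 CPM in control libraries. Here 7 of 10 restricted libraries were above the control median and 4 above the control range. The fold change of Pck1 was 0.10 ± 0.138 (SE, log2, edgeR adjusted p = 0.678), with an interval of 1.96 SE from −0.17 to 0.37, and the value was 0.06 without Restricted 1 (edgeR adjusted p = 0.843) and 0.01 without the libraries with muscle transcripts (edgeR adjusted p = 0.982). In libraries marked No, Pck1 averaged 3814 ± 983 CPM in 7 restricted and 3703 ± 227 CPM in 3 control libraries, and in libraries marked Yes 3282 ± 482 CPM in 3 restricted and 2931 ± 654 CPM in 7 control libraries (SD).

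Restricted 1 had the highest level of all 20 libraries for 6 of the 10 genes. Relative to the median of the other 9 restricted libraries it stood at 3.40-fold for Mogat2, 2.85-fold for Gpd1, 2.64-fold for Agpat2, 1.61-fold for Dgat2, 1.52-fold for Dgat1 and 1.35-fold for Gpam. For Pck1 it stood at 0.989-fold and ranked 10 of 20, and for Mogat1 it ranked 13 of 20. This library also carried the highest muscle sum, whose part in these values was not tested. In the 5 control libraries with muscle transcripts Agpat2 averaged 655 ± 97.9 CPM, and in the other 5 controls 788 ± 89.0 CPM (SD, n = 5 each). In the same order Gpd1 averaged 984 ± 203 and 1112 ± 144 CPM, Dgat2 2585 ± 333 and 3026 ± 339 CPM, and Mogat2 4.67 ± 2.08 and 4.79 ± 1.43 CPM.

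No member was called for the contamination label (edgeR adjusted p from 0.352 to 0.998), against 6.1% of all genes, 5.7% higher and 0.403% lower in libraries marked Yes. The smallest adjusted label p was that of Pck1, −0.28 ± 0.138 for Yes over No (SE, log2, edgeR adjusted p = 0.352). No member was called for a difference of the diet effect between libraries marked Yes and No (edgeR product term, adjusted p from 0.842 to 0.948, 0 members with an unadjusted p under 0.05); over all genes 0 were called and 1008 had an unadjusted p under 0.05.

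Within diet and label, 8 of the 10 genes varied with at least 1 other from library to library by Pearson's r. Log2 CPM of each gene less the mean of its diet and label class was correlated for all 45 pairs over 20 libraries, with permutations inside the classes and adjustment over the 45. All genes of a library share its scaling factor. In 16 pairs Pearson's r passed, and all 16 were positive; 8 passed without Restricted 1, all of them among the 16. By Spearman's rho 12 pairs passed, 11 of them among the 16, and 9 passed without Restricted 1, among them the same 8. The 5 that passed by r but not by rho were Agpat2 with Lpin1 (r = 0.636, rho = 0.534, permutation p for rho adjusted to 0.0612), Agpat2 with Dgat1 (0.733, 0.586, 0.0612), Lpin1 with Dgat1 (0.583, 0.546, 0.0612), Lpin1 with Dgat2 (0.623, 0.583, 0.0588) and Lpin1 with Gpd1 (0.539, 0.508, 0.0752). Gpam with Mogat1 passed by rho (0.598, permutation p = 0.0109, adjusted p = 0.0409) but not by r (0.549, adjusted p = 0.0535), and not without Restricted 1 (rho = 0.488, adjusted p = 0.132). Agpat2 and Dgat2 had r = 0.924 (permutation p = 1e-05, the smallest that 100000 permutations can give, adjusted p = 0.00045) and rho = 0.937 (permutation p = 1e-05, adjusted p = 0.00045). Without the 2 libraries farthest from the Agpat2 median r was 0.885, and without Restricted 1 it was 0.910. Agpat2 and Gpd1 had r = 0.934 (permutation p = 7e-05, adjusted p = 0.00157) and rho = 0.866 (permutation p = 9e-05, adjusted p = 0.00203), with r = 0.855 without the 2 farthest libraries and 0.830 without Restricted 1. Lpin1 and Pck1 had r = 0.787 (permutation p = 0.00044, adjusted p = 0.00648) and rho = 0.681 (permutation p = 0.0027, adjusted p = 0.0135), with r = 0.676 without the 2 farthest libraries and 0.796 without Restricted 1. Dgat1 and Mogat1 had r = 0.732 (permutation p = 0.00072, adjusted p = 0.00648) and rho = 0.743 (permutation p = 0.00056, adjusted p = 0.00594), with r = 0.660 without the 2 farthest libraries and 0.675 without Restricted 1. The other pairs that passed with and without Restricted 1 were Dgat2 with Gpd1, Mogat2 with Gpd1, Lpin1 with Mogat1 and Dgat1 with Pck1. By Pearson's r, Gpam and Gpat3 were in no pair that passed. How many pairs pass among all genes was not computed, so these counts cannot be called particular to the 10 genes. Genes outside the list reached r of 0.977 (Prkaca with Gpd1) and 0.965 (Usp5 with Agpat2). The correlated values were not adjusted for the muscle level.

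**Figure D4:**
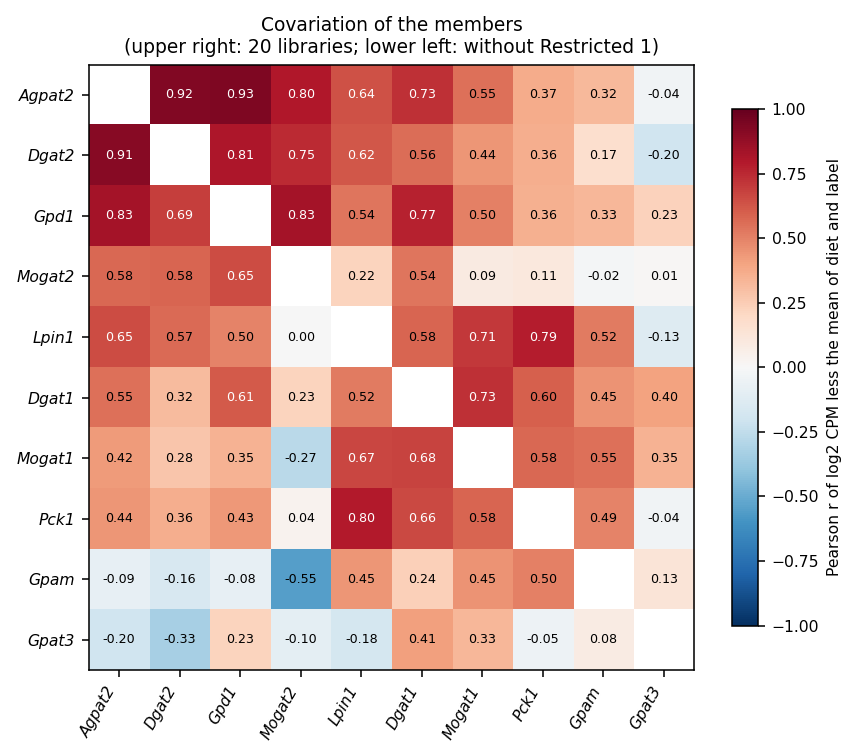
Pearson's r between each pair of the 10 genes, of log2 CPM less the mean of its diet and label class, over 20 libraries above the diagonal and over 19 without Restricted 1 below it. Agpat2 with Gpd1 and with Dgat2 reach 0.93 and 0.92 above the diagonal and 0.83 and 0.91 below it, Lpin1 with Pck1 reach 0.79 and 0.80, and the Gpam and Gpat3 rows include the lowest values.

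Promoter windows of RefSeq (build GRCm38.p6) hold the 250 bases before an annotated start. Windows were found for 6 of the 10 genes: Gpam, Gpat3, Agpat2, Lpin1, Mogat1 and Pck1. Those of Lpin1 and Pck1 are shown because their levels varied together, and that of Mogat1 because BC035947 lies across it. Each is printed 5′ to 3′ on the strand of its gene, and capitals mark the motif matches found by search on both strands.
Lpin1, chr12:16610967-16611216, minus strand: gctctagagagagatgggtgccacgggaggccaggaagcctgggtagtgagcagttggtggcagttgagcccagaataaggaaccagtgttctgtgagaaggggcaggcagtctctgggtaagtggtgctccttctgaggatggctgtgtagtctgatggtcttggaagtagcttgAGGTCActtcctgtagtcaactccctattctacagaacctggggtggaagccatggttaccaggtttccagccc
Pck1, chr2:173152823-173153072, plus strand: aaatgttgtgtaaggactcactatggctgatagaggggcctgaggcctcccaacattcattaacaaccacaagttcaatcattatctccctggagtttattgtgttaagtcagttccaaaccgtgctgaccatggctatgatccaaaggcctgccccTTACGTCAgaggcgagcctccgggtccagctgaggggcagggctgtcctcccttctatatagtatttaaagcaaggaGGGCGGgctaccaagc
Mogat1, chr1:78510810-78511059, plus strand: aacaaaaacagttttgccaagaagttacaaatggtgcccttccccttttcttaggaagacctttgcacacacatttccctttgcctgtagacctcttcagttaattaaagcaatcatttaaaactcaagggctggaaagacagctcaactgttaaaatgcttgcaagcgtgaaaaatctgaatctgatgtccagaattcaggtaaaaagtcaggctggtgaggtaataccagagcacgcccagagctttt
The capitals in the Lpin1 window are AGGTCA, the core motif bound by many nuclear receptors, at position −74 from the start, a motif held by 14% of 32851 such windows. This start lies inside the listed span of Lpin1. The Pck1 and Mogat1 windows also end inside the listed spans of their genes, which begin at 173153048 and 78510991. The capitals in the Pck1 window are TTACGTCA, a form of the cAMP response element, at position −93, held by 0.447% of the windows, and the GC box GGGCGG at position −16, held by 32.7%. The Mogat1 window held none of the motifs searched. Those were the 3 above, the cAMP response element TGACGTCA (1.55% of windows), the direct repeat of the nuclear receptor core that PPAR and RXR bind (0.0335%), which contains that core, the E-box CACGTG (6.02%), the sterol response element TCACNCCAC (1.05%), TATAAA (12.4%) and CCAAT (33.8%). A match describes these letters only.

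The genes whose library pattern was most like each member were ranked by Pearson's r of the same values over 20 libraries, among 14336 genes with a mean of at least 1 CPM, as a description. Closest to Gpd1 was Prkaca, a catalytic subunit of protein kinase A (r = 0.977, and 0.939 without Restricted 1), and closest to Agpat2 was Usp5, a deubiquitinase (0.965 and 0.915). Closest to Mogat1 was Abhd5, the activator of adipose triglyceride lipase (0.915 and 0.906), closest to Lpin1 was Tmem120b (0.922 and 0.924), and closest to Pck1 was Cers2, a ceramide synthase (0.890 and 0.906). Closest to Gpam was Hcar1, the lactate receptor of adipocytes (0.855 and 0.832), and closest to Gpat3 was Ak4, an adenylate kinase (0.757 and 0.761). Mogat2 was closest to Hfe, an iron regulator (0.932 and 0.868), Dgat1 to Dis3l (0.938 and 0.954), and Dgat2 to Cdk16 (0.943 and 0.910).

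Beyond the 10 genes, 55 genes of the same pathway and its branches were examined, of which 53 were tested. Of these, 6 were called higher and 3 lower, and the median log2 fold change was 0.07, beside 6.22% higher, 6.33% lower and a median of 0.02 over all tested genes. That background also applies to the counts of each list below. Without Restricted 1 the counts were 2 higher (Acsl3 and Cds1) and 1 lower (Plpp3), and without the libraries with muscle transcripts Plpp3 was the 1 call.

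Among 14 tested acyltransferases and phosphatases, 0 were higher and 2 lower, both of them lipid phosphate phosphatases. Plpp3, a cell surface enzyme that removes phosphate from phosphatidic and lysophosphatidic acid, had 175, 213 and 252 CPM (lowest, median and highest) in restricted libraries, against 254, 301 and 354 CPM in control libraries. The ranges did not overlap. Plpp3 fell by 0.51 ± 0.0779 on the log2 scale (SE, edgeR adjusted p = 0.000307) and by 0.48 without Restricted 1 (edgeR adjusted p = 0.00104), and it passed in all 20 fits that each left out 1 library. Macrophage marker sums differed between the diets as given above, and their part in this was not tested. Plpp2 averaged 24.1 ± 2.88 CPM in restricted and 28.2 ± 1.82 CPM in control libraries and fell by 0.24 (log2, edgeR adjusted p = 0.0257), a call that was lost without Restricted 1 (edgeR adjusted p = 0.0555) and without Control 7 (edgeR adjusted p = 0.092). None of the paralogs of the main steps, among them Gpat4, Agpat1, Agpat3, Lpin2 and Lpin3, was called (log2 fold changes 0.11, 0.17, 0.04, 0.07 and −0.10).

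Among 12 genes of glycerol 3-phosphate and pyruvate supply, 3 were higher and 1 lower. Gpd2, the mitochondrial glycerol 3-phosphate dehydrogenase that oxidizes what Gpd1 makes, averaged 110.5 ± 26.2 CPM in restricted and 84.3 ± 7.71 CPM in control libraries, and 7 of 10 restricted libraries were above the control range. It rose by 0.42 (log2, edgeR adjusted p = 0.0196), with the call lost without Restricted 1 (0.27, edgeR adjusted p = 0.102) and without Control 7 (0.39, edgeR adjusted p = 0.0525). Pdk1, a kinase that switches off pyruvate dehydrogenase, averaged 81.3 ± 30.1 CPM in restricted and 51.9 ± 7.60 CPM in control libraries and rose by 0.70 (log2, edgeR adjusted p = 0.0119), a call lost without Restricted 1 (0.51, edgeR adjusted p = 0.0713). Its relative Pdk3 fell by 0.27 (edgeR adjusted p = 0.0438), and Gpd1l, a relative of Gpd1, rose by 0.15 (edgeR adjusted p = 0.0427). The calls of Pdk3 and Gpd1l passed in 6 and 4 of the 20 fits that left out 1 library, with adjusted p up to 0.0925 and 0.132. Gk (glycerol kinase), Aqp7 (the glycerol channel of adipocytes), Pcx and Pdk4 were not called, at log2 fold changes of 0.13, 0.08, 0.19 and 0.04.

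Among 7 genes of acyl-CoA supply, 1 was higher. Acsl3, an acyl-CoA synthetase of lipid droplets, averaged 17.7 ± 2.90 CPM in restricted and 13.3 ± 2.88 CPM in control libraries and rose by 0.47 (log2, edgeR adjusted p = 0.0156), past the threshold in all 20 fits that left out 1 library (largest edgeR adjusted p = 0.0471) but not without the libraries with muscle transcripts (0.34, 0.223). Acsl1, the main synthetase of adipocytes, averaged 2027 ± 652 CPM in restricted and 1543 ± 199 CPM in control libraries and was not called (edgeR adjusted p = 0.0866). Of 11 regulators, 0 were called, with 1 unadjusted p under 0.05, that of Pparg, the master regulator of adipocyte genes (306 ± 39.1 CPM in restricted and 267 ± 24.3 CPM in control libraries, log2 fold change 0.20, edgeR adjusted p = 0.0926).

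Among 9 genes of the phospholipid branch, which draws on phosphatidic acid and diacylglycerol, 2 were higher. Chpt1, which makes phosphatidylcholine from diacylglycerol, averaged 1104 ± 231 CPM in restricted and 804.5 ± 50.4 CPM in control libraries, with 8 of 10 restricted libraries above the control range and 1 below it. It rose by 0.39 (log2, edgeR adjusted p = 0.0205), a call lost without Restricted 1 (0.26, edgeR adjusted p = 0.107), Control 3 (0.34, 0.0585) or Control 7 (0.38, 0.053). Cds1, which makes CDP-diacylglycerol, averaged 20.3 ± 6.02 CPM in restricted and 19.03 ± 3.34 CPM in control libraries, but the restricted median, 17.5 CPM, was below the control median of 19.1 CPM, and 6 of 10 restricted libraries lay under it. The fit with the label gave it a log2 fold change of 0.29 (edgeR adjusted p = 0.0374), and the label itself had a value of 0.56 for Yes over No (edgeR adjusted p = 9.16e-05). The Cds1 call passed in 11 of the 20 fits that left out 1 library, with adjusted p up to 0.127. Its value was 0.09 with diet alone in the model (edgeR adjusted p = 0.735) and 0.10 in libraries marked No (edgeR adjusted p = 0.613).

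**Figure D5:**
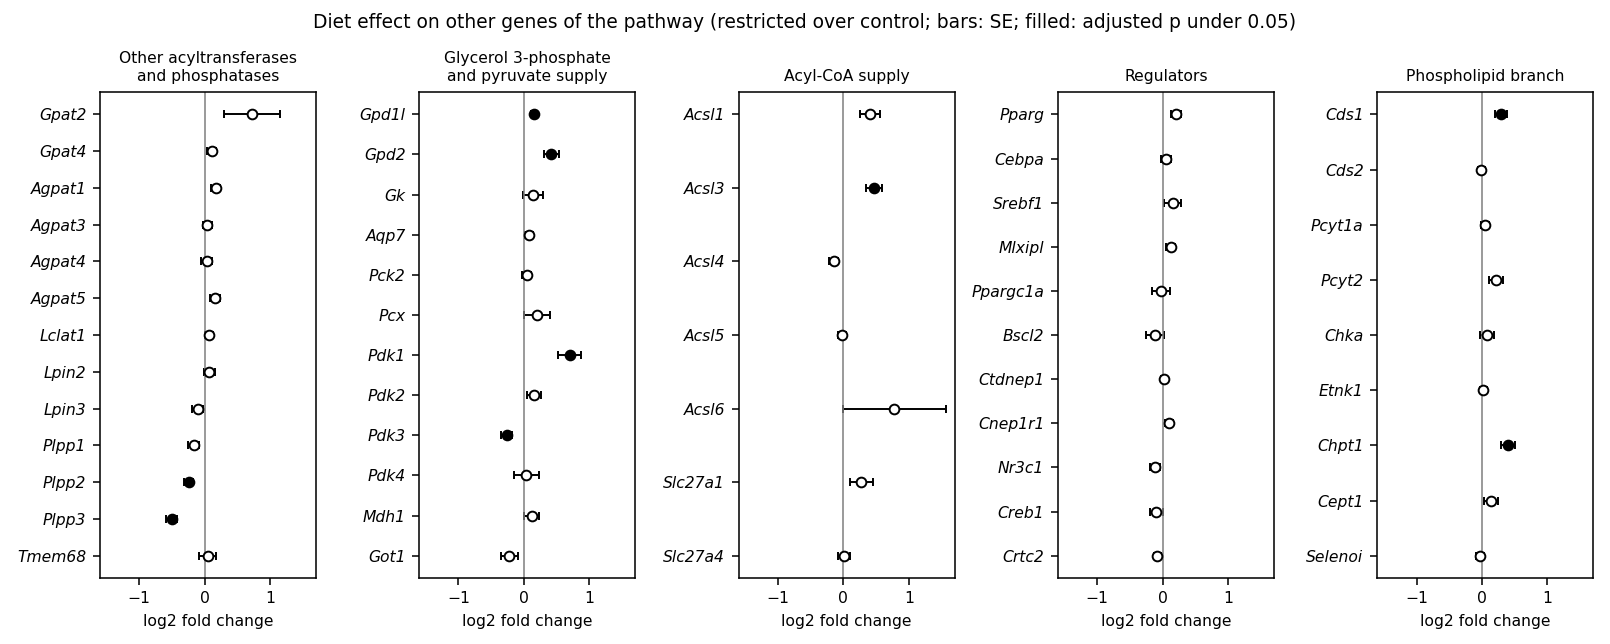
Fitted log2 fold change of restricted over control for the other genes of the pathway in 5 groups, with bars of 1 standard error and filled points for an adjusted p under 0.05; Awat1 and Dgat2l6, which did not pass the filter on low counts, and Awat2, whose standard error was over 1, are left out. Most points lie near 0, and Plpp3 at −0.51 and Pdk1 at 0.70 are the filled points farthest from it.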

How the data were processed

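The authors deposited whole-number counts per gene for 20 polyA RNA-seq libraries, read as 52-bp paired ends. The labels' tissue is eWAT; their extraction protocol says QUAD, and the tissue label was followed. Tools named without a role in the submitters' processing notes are STAR, Salmon and bcl2fastq 4.0.3, with GRCm38 as build. How reads were counted (program, annotation, use of strand) is not given in the sources used here. Coordinates and lengths are as deposited, 1-based, and symbols were matched by gene identifier (260 genes, with 0.0086% of the counts, had none).

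The main test was the quasi-likelihood test of edgeR 4.0.16 (R 4.3.3) on the counts. It used TMM factors, the filter filterByExpr at 10 counts with the design, and an additive model of contamination label and diet. P-values were two-sided and adjusted by Benjamini-Hochberg over all 17105 tested genes, with 0.05 as the threshold. These genes covered 99.722% or more of every library. As edgeR gives no standard error, the SE of a fold change is its size divided by the square root of the F statistic. Intervals of 1.96 SE use the normal distribution. CPM values use the total of the tested genes times the TMM factor, and log2 CPM a prior count of 2. Ratios have 0.5 added to both counts, other than in the plot of the ratios. Ratios and correlations were tested by permutation within label (and diet) classes. Marker sums and the BC035947 means use plain library totals. The biological coefficient of variation was 0.202, above the counting error of each member at these depths, Mogat2 being the least precise. No pair of libraries within a diet agreed within sampling noise (lowest chi-square per gene 9.83). Steps were tested on simulated data.

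The members and lists were chosen with earlier results of these data known. Named by rule are the 10 members, each called gene of the wider lists, and genes most like each member, of which the closest is given; other genes were named after their values were seen. Alternatives were DESeq2 1.42.0, voom of limma 3.58.1, other factors and filters, other terms, subsets of libraries, a block for the replicate number, and each library left out in turn. Every limma-voom value given here comes from a fit with a quality weight for each library. The RNA integrity number was a term only in the 17 libraries that have one. Plain library totals were added after seeing the data. Python 3.11.15 with scipy 1.17.1 and matplotlib 3.10.9 served for the rest.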

Additional observations from a re-analysis of the deposited data

Results flagged for a closer look

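Of 26 groups of 10 libraries examined, 6 had 1 library whose gap to the nearest of the others took more than 0.466 of the range of the group. Independent groups of normally distributed values give about 1 in 20. These groups share libraries, and the gene levels were in CPM and not in logs, so the 6 cannot be read against that share. Restricted 1 stood above the other restricted libraries for Agpat2 (1862 CPM), Mogat2 (29.65 CPM) and Gpd1 (2708 CPM). Control 9 stood above the other control libraries for Gpam (882.9 CPM) and below them for the log2 ratio of Gpat3 over Gpam (−2.891). Restricted 4 had the lowest log2 ratio of Dgat2 over Dgat1 of the restricted libraries (2.769). Restricted 1 also had the highest muscle marker level of all libraries (mean log2 CPM 7.28).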

How the results depend on the processing

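The number of genes called by diet, 2146 of 17105, was 1374 in the 17 libraries with an integrity number, 364 with that number as a term, 1083 with germ cell and epididymis levels in place of the label, 475 with only the No libraries, 256 with only the Yes libraries and 897 without the libraries with muscle transcripts, and 1464 to 2265 when each library was left out. Members called higher, 1 as reported, were 2 in DESeq2 and with diet alone, 0 with the integrity term, in No alone, in Yes alone and without the muscle libraries, and 0 to 2 when each library was left out. Members called lower, 0 as reported, were 1 (Mogat1) at a minimum of 1 CPM, with germ cell and epididymis terms, with limma-voom and with plain totals, and 0 to 1 when each library was left out. Wider pathway genes called, 9 as reported, were 2 in the 17 libraries and in No alone, 1 with the integrity term, with germ cell and epididymis terms and without the muscle libraries, 0 in Yes alone, and 3 to 9 when each library was left out (3 without Restricted 1 and without Control 7). The log2 ratio of Gpat3 over Gpam ran from −0.50 to −0.32 when each library was left out, and 8 of 16 correlated pairs passed without Restricted 1. Fewer libraries were fitted in the subsets and with the integrity term (17 libraries). The cause of the other changes was not tested.

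With the replicate number as a replicate block, 1336 genes, 1 member (Mogat2, 1.18, edgeR adjusted p = 0.0295) and 2 wider pathway genes were called. Whether the numbers pair the libraries is not in the labels. Between libraries of the same number the correlation of deviations from the diet means ran from −0.61 to 0.53. It was over 0.1 in 4 of 10 pairs, and 1 restricted library was most like its own number.

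Signs turned for members that were not called. Gpat3 was 0.0194 in the 17 libraries and 0.0128 in Yes alone, and ran from −0.128 to 0.00067 (without Control 7) when each library was left out. Agpat2 was −0.0078 with limma-voom and −0.17 without the muscle libraries, and ran from −0.0559 (without Restricted 1) to 0.404. Dgat1 was −0.00079 in No alone, −0.0090 with limma-voom, −0.0239 with plain totals and −0.10 without the muscle libraries, and ran from −0.0427 (without Restricted 1) to 0.135. Gpd1 was −0.17 without the muscle libraries and ran from −0.0675 (without Restricted 1) to 0.381. Depth limits Mogat2, which had as few as 47 counts.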
